A study of Mus musculus with 4 samples.

Results

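The genes described here are the 10 that carry the signal from nitric oxide to cyclic GMP (cGMP) in vessels, out of 32285 genes counted. They were listed by name as members of the pathway, but with earlier results of these data known. The genes are Nos3, Cav1, Ddah1, Ddah2, Gucy1a1, Gucy1a2, Gucy1b1, Prkg1, Pde5a and Pde3a, and all 10 were found in the count matrix. The data are transcript counts in single cells of collecting lymphatic vessels and adjoining tissue, dissected from C57BL/6J mice aged 12 to 14 weeks, 4 male and 4 female, for which the labels name no treatment. For each mouse, vessels of 4 body regions were combined, so neither a region nor a vessel can be told apart. The title of the study places it in research on TRPV4 channels and the contraction of these vessels. No label ties a cell barcode to a mouse or a sex, so the 24046 barcodes were handled as 1 pooled sample, no test was made, and all intervals are 95% intervals that cover counting error only.

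Nitric oxide is a short-lived gas made in endothelium by the synthase NOS3. It diffuses into neighbouring cells and binds soluble guanylate cyclase, a receptor made of an alpha subunit (Gucy1a1 or Gucy1a2) and the beta subunit Gucy1b1, which then makes cGMP. In muscle, cGMP activates the kinase PRKG1, which lowers calcium and relaxes the cell, and phosphodiesterases such as PDE5A break cGMP down. In lymphatic vessels the initial lymphatics take up fluid, whereas the collecting lymphatics have a muscle coat that pumps it, and nitric oxide from the lymphatic endothelium is known to modulate that pumping.

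The 24046 barcodes held 232753017 gene UMIs (counts of distinct captured molecules), and 22942 cells were left after low-quality barcodes and called doublets were taken out. The 8 number suffixes on the barcodes held 2375 to 3315 barcodes each. They fall into 2 capture sets, suffixes 1 to 4 and 5 to 8, with 0 barcode sequences shared within a set and 44 across sets, and in each suffix 1 multiplexing tag took 84.4% to 89.0% of the tag UMIs. The same 4 leading tags recur in both sets and no label names a mouse or a sex for a tag, so suffixes are given as unlabelled samples and not as replicates. The labels name 2 gene expression libraries, 1 of 4 male and 1 of 4 female mice. If each capture set is 1 of these libraries, a difference between sets cannot be told apart from a difference of sex. Cells were put into classes by marker genes, and a class defined in this way is called a gate. The 6 vessel gates were 61 initial lymphatic endothelial cells (with Prox1, Lyve1 and Ccl21a), 368 collecting lymphatic endothelial cells (Prox1 without Lyve1 or Ccl21a), 282 blood endothelial cells (Flt1 without Prox1), 1233 lymphatic muscle cells (Myh11 with Actc1 or Actg2), 280 vascular muscle cells (Myh11 with neither) and 40 pericytes (Rgs5 and Notch3, low Myh11). Among the lymphatic muscle cells, 85 held only 1 UMI of Actc1 and Actg2 together. Levels are a gene's UMIs scaled to the gene UMIs of its gate (CPM, counts per 1000000). The initial gate is small and uneven, with 24 of its 61 cells in suffix 8, and the pericyte gate had 1 to 11 cells per suffix.

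The cyclase genes Gucy1a1 and Gucy1b1, on which the comparison of the 2 lymphatic endothelia turns, lie side by side on the minus strand of chromosome 3 of GRCm38. Gucy1b1 spans 82032006 to 82074689 and Gucy1a1 82092427 to 82145789, with 17.7 kb and no annotated gene between them (GENCODE M21). The bases just upstream of each gene are shown because the transcripts of this pair go together across the gates. They are RefSeq sequences of GRCm38.p6, written 5′ to 3′ on the gene's strand, with bases inside the annotated gene left out, and capitals mark the GC box GGGCGG.
Gucy1a1, chr3:82145790-82145900: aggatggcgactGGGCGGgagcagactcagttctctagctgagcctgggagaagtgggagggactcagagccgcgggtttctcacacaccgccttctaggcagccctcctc
Gucy1b1, chr3:82074712-82074961: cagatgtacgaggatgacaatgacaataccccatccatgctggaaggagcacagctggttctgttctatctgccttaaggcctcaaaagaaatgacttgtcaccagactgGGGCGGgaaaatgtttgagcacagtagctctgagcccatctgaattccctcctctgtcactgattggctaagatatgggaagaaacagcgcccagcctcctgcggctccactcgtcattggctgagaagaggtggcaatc
Each stretch holds 1 GC box, which occurs on either strand in 32.7% of the 250-base upstream regions of all 32851 promoters in the table, and neither region holds the TATA box TATAAA, found in 12.4% of them. The 111 bases shown for Gucy1a1 are 63.1% G and C. At the 250 bases of the background, the Gucy1a1 region is 64.0% with 1 GC box and the Gucy1b1 region 51.2%. The median over all upstream regions is 52.4%. A second Gucy1a1 promoter region (82145074 to 82145323), inside the annotated gene and so not shown, is 61.2% G and C and holds 0 GC boxes. The table holds promoters of 8 of the 10 genes, and Nos3 and Pde3a are not among them.

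Nos3, the endothelial nitric oxide synthase (chromosome 5, 24364810 to 24384474, plus strand), was a gene of the endothelial gates. Its level was 241 CPM (228 to 255, 1215 UMIs) in collecting lymphatic endothelium, 95.6 CPM (82.3 to 110) in blood endothelium and 84.7 CPM (65.2 to 108, 64 UMIs) in initial lymphatic endothelium. The last 2 intervals overlap. Over the 8 suffixes the collecting level ran from 198 to 311 CPM (median 240), the initial level from 13.4 to 224 CPM (median 78.98) and the blood endothelial level from 66.7 to 152 CPM (median 93.7). The collecting and initial ranges overlap only through 1 suffix of the initial gate, suffix 3, and the collecting level was the higher of the pair in 8 of 8 suffixes. Lymphatic muscle held 8 Nos3 UMIs (0.761 CPM) and vascular muscle 1, below the 2.49 CPM (4 UMIs) of B cells, the gate used as the background level for vessel genes.

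**Figure D1:**
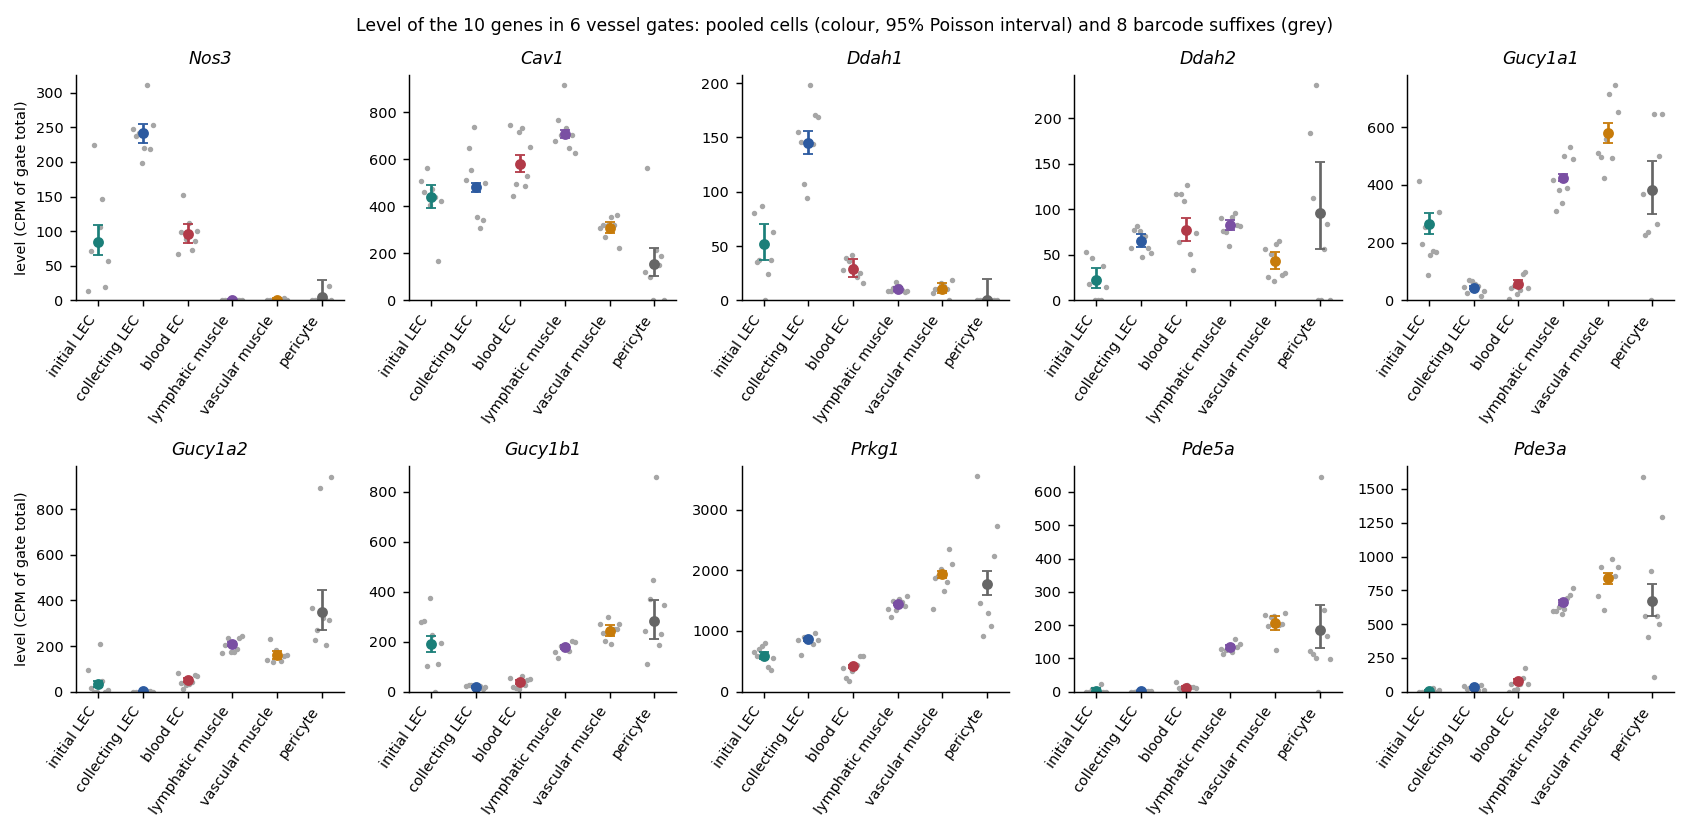
Level of each gene in the 6 vessel gates, in CPM of the gate's gene UMIs (vertical axes, each from 0). Coloured points with bars are pooled cells with the 95% Poisson interval, and grey points are the 8 barcode suffixes. Nos3 and Ddah1 stand highest in collecting lymphatic endothelium (LEC), Gucy1a1 and Gucy1b1 are high in initial LEC and in the 3 mural gates, and Pde5a and Pde3a are high in the mural gates alone.

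The next 3 genes act on the synthase. Cav1 encodes caveolin-1, the coat protein of caveolae, which binds and inhibits NOS3. Its level was 707 CPM (691 to 723) in lymphatic muscle, 581 CPM (547 to 616) in blood endothelium, 481 CPM (462 to 500) in collecting and 439 CPM (393 to 489) in initial lymphatic endothelium, with overlapping intervals in the last pair. Vascular muscle held 309 CPM and pericytes 154 CPM (103 to 222, 29 UMIs), the lowest level of the 6.

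Ddah1 and Ddah2 encode dimethylarginine dimethylaminohydrolases, enzymes known for degrading methylated arginines, the body's own inhibitors of nitric oxide synthesis. Ddah1 was highest where Nos3 was, at 145 CPM (134 to 156) in collecting lymphatic endothelium, 51.6 CPM (36.7 to 70.6) in initial lymphatic endothelium and 29.1 CPM (21.97 to 37.8) in blood endothelium. Both muscle gates held about 10 CPM (10.3 in lymphatic, 10.4 in vascular muscle). Pericytes held 0 Ddah1 UMIs, with an interval up to 19.6 CPM. Where a count of 0 is said to allow a level, that limit is 3 counts and one-sided, here 15.98 CPM. Ddah2 was spread more evenly: 95.9 CPM (56.8 to 151.5) in pericytes, 82.4 CPM in lymphatic muscle and 77.4 CPM in blood endothelium. Ddah2 was at 65.6 CPM in collecting lymphatic endothelium, 42.7 CPM in vascular muscle and 22.5 CPM (13.1 to 36.0, 17 UMIs) in initial lymphatic endothelium. Its highest level of all 16 gates lay outside the vessel, in fibroblasts, at 229 CPM (225 to 232).

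The receptor subunits followed another order. Gucy1a1, the main alpha subunit, was at 580 CPM (547 to 615) in vascular muscle, 425 CPM (412 to 437) in lymphatic muscle, 383 CPM (300.03 to 483) in pericytes and 263 CPM (228 to 303, 199 UMIs) in initial lymphatic endothelium. Blood endothelium held 57.7 CPM (47.4 to 69.4) and collecting lymphatic endothelium 43.9 CPM (38.3 to 50.1), whose intervals overlap. Gucy1b1, the obligate beta subunit, went the same way, at 282 CPM (211 to 369) in pericytes, 243 CPM (222 to 267) in vascular muscle, 191 CPM (161 to 224, 144 UMIs) in initial lymphatic endothelium and 179 CPM (171 to 187) in lymphatic muscle. It was at 36.9 CPM (28.8 to 46.5) in blood and 19.1 CPM (15.4 to 23.3) in collecting lymphatic endothelium. The lymphatic muscle level of the beta subunit thus lies within the counting interval of initial lymphatic endothelium.

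Gucy1a2, the other alpha subunit, was highest in the mural gates: 351 CPM (272 to 447) in pericytes, 208 CPM (200 to 217) in lymphatic muscle, 159.5 CPM (142 to 178) in vascular muscle, 50.9 CPM in blood endothelium, 33.1 CPM (21.4 to 48.9, 25 UMIs) in initial and 0.795 CPM (4 UMIs) in collecting lymphatic endothelium. As a share of all alpha subunit UMIs, Gucy1a2 took 47.8% (39.3 to 56.5) in pericytes and 46.9% (39.97 to 53.9) in blood endothelium. The share was 32.9% (31.8 to 34.0) in lymphatic muscle and 21.6% (19.5 to 23.8) in vascular muscle. It was 11.2% (7.35 to 16.03) in initial and 1.78% (0.486 to 4.49) in collecting lymphatic endothelium. Outside the vessel gates, fibroblasts had a share of 79.3% (77.8 to 80.8). The shares compare gates and not the 2 genes, since UMI counts are not set to transcript length or capture.

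Prkg1, the cGMP-dependent kinase, was found in every vessel gate. It stood at 1932 CPM (1870 to 1995) in vascular muscle, 1779 CPM (1593 to 1980) in pericytes, 1445 CPM (1422 to 1468) in lymphatic muscle, 864 CPM (838 to 890) in collecting and 594 CPM (541 to 652) in initial lymphatic endothelium, and 416 CPM (388 to 446) in blood endothelium. The intervals of vascular muscle and pericytes overlap, and those of the other neighbours do not. The gene spans 1200.5 kb of chromosome 19 and holds Cstf2t on the opposite strand. No source used here states whether counting used strand. Whether reads of Prkg1 were kept apart from those of genes on the opposite strand is therefore not known here. The same holds for Nos3, Cav1, Pde5a and Pde3a, which also overlap counted genes on the opposite strand.

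The phosphodiesterases were mural. Pde5a, the cGMP-specific enzyme that sildenafil inhibits, was at 205 CPM (186 to 227) in vascular muscle, 186 CPM (130 to 259) in pericytes and 134 CPM (127 to 141) in lymphatic muscle. In blood endothelium it reached 12.5 CPM (24 UMIs), and in initial and collecting lymphatic endothelium 2 and 7 UMIs were seen in all. Pde3a, which degrades cyclic AMP and is inhibited by cGMP, was at 839 CPM (798 to 881) in vascular muscle, 671 CPM (559 to 799) in pericytes and 660 CPM (645 to 676) in lymphatic muscle, against 79.5 CPM in blood, 31.2 CPM in collecting and 6.62 CPM (5 UMIs) in initial lymphatic endothelium.

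The first comparison was collecting against initial lymphatic endothelium. Collecting endothelium held more transcripts of the synthase and of both enzymes that clear its inhibitors, and initial endothelium more of all 3 receptor subunits. A gene was counted as higher in a gate when it reached 20 CPM in either gate, its CPM ratio was at least 2-fold and the interval lay apart from 1. Of the 9 genes at 20 CPM, 4 were higher in collecting endothelium (Nos3, Ddah1, Ddah2 and Pde3a) and 3 in initial endothelium (Gucy1a1, Gucy1a2 and Gucy1b1). The same rule counted 6.82% of all 6896 genes as higher in collecting and 7.76% as higher in initial endothelium. The median log2 ratio of collecting over initial was 0.54 over the 9 genes and -0.07 over all genes.

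Nos3 was 2.85-fold (2.22 to 3.72) and Ddah1 2.81-fold (2.03 to 3.98) higher in collecting endothelium, each in 8 of 8 suffixes. Ddah2 was 2.91-fold (1.79 to 5.06) higher, also in 8 of 8 suffixes, on 17 initial UMIs. For Nos3 the ratio was 1.93 in capture set 1 and 3.81 in set 2, so it is under 2-fold in the first. Pde3a was 4.71-fold (1.98 to 14.7) higher in collecting endothelium, in 7 of 8 suffixes, on only 5 initial UMIs, none of them in capture set 1.

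In the opposite direction, Gucy1a1 was 6.00-fold (4.93 to 7.30) higher in initial endothelium. Its initial level ran from 86.9 to 414 CPM over the suffixes (median 183) and its collecting level from 15.96 to 70.8 CPM (median 48.9), so the ranges do not overlap. Gucy1b1 was 10.0-fold (7.67 to 13.1) higher, with a factor of 10.00 in set 1 and 10.3 in set 2. Its initial level ran from 0 to 376 CPM (median 211) and its collecting level from 9.75 to 27.1 CPM (median 21.5). The ranges meet only because the 4 initial cells of suffix 6 held no Gucy1b1 UMI, and initial endothelium was higher in the other 7 suffixes.

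Gucy1a2 was 41.6-fold (14.4 to 165) higher in initial endothelium on 25 against 4 UMIs, but in 5 of 8 suffixes only, with the opposite order in 2. Of the 25 UMIs, 12 came from suffix 5, and without that suffix the initial level was 18.6 CPM, under the minimum of 20. Cav1 (1.09-fold, 0.975 to 1.23) differed by less than the counting error, and Prkg1 was 1.45-fold (1.32 to 1.61) higher in collecting endothelium, in 8 of 8 suffixes, short of 2-fold.

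**Figure D2:**
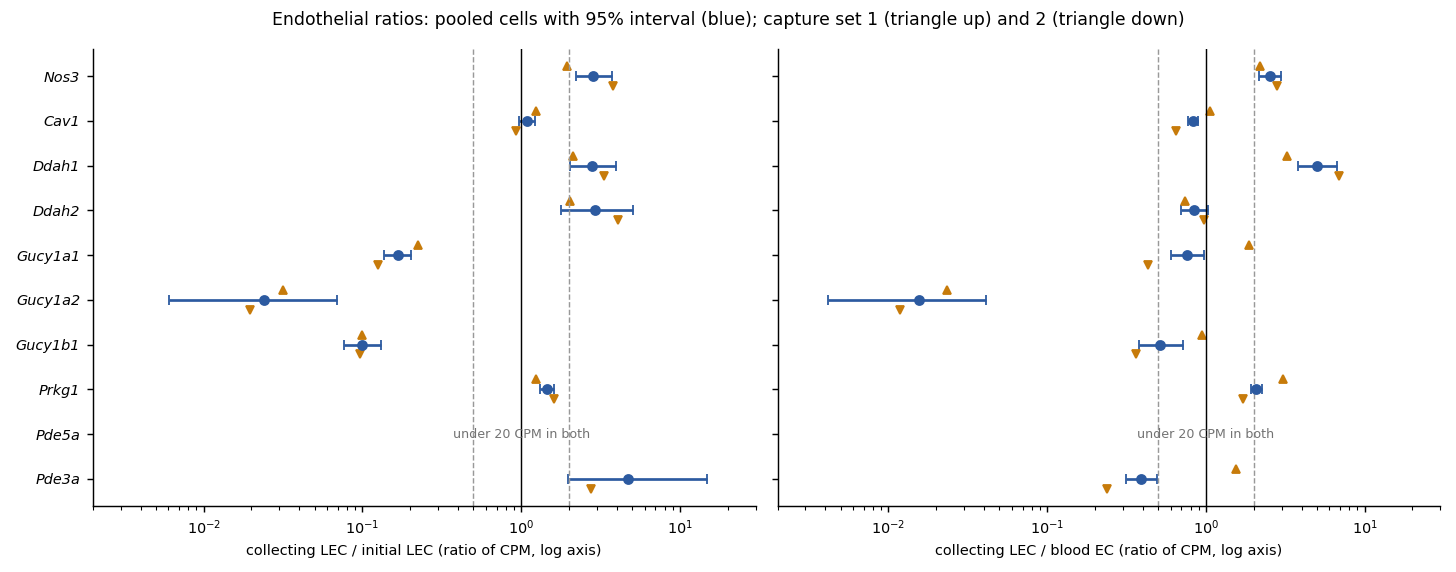
Ratio of CPM in collecting lymphatic endothelium to that in initial lymphatic (left) and blood endothelium (right), on log axes. Blue points are pooled cells with the 95% interval, orange triangles the 2 capture sets (a set with 0 UMIs in a gate has none), and dashed lines mark 2-fold. On the left the 3 subunits lie at 0.17 or less and Nos3, Ddah1, Ddah2 and Pde3a above 2, and on the right Gucy1a1, Gucy1b1 and Pde3a lie apart between the sets.

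The alpha and beta subunit make a working receptor only together, so cells with a UMI of both Gucy1a1 and Gucy1b1 were counted. These were 42 of 61 initial lymphatic endothelial cells (68.9%, exact Clopper-Pearson 55.7 to 80.1) and 34 of 368 collecting cells (9.24%, 6.48 to 12.7). The share was 61.9% (59.1 to 64.6) in lymphatic muscle, 66.4% (60.6 to 71.9) in vascular muscle and 45.0% (29.3 to 61.5) in pericytes. Multiplying the shares of cells with each gene gave 67.2% in initial and 4.95% in collecting endothelium. It gave 58.3% in lymphatic muscle, 63.1% in vascular muscle and 45.3% in pericytes. In initial endothelium and the mural gates the share with both is thus near what each gene's own share gives. After thinning each cell to 2000 UMIs the shares were 16.4% in initial and 0.829% in collecting lymphatic endothelium, 16.2% in lymphatic muscle and 22.4% in vascular muscle. The order of initial above collecting endothelium therefore holds at equal depth. In B cells, with a median of 5039 UMIs per cell against 8739 in the initial and 8191 in the collecting gate, Gucy1a1 was found in 3.93% and Gucy1b1 in 0.437% of cells. Nos3 and Gucy1b1 were found in the same cell in 19 of 61 initial and 56 of 368 collecting cells, but after thinning in 0 of 61 initial cells, which allows a share of up to 4.92%, and in 4 of 362 collecting cells (1.10%), so no order is read from this pair.

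**Figure D3:**
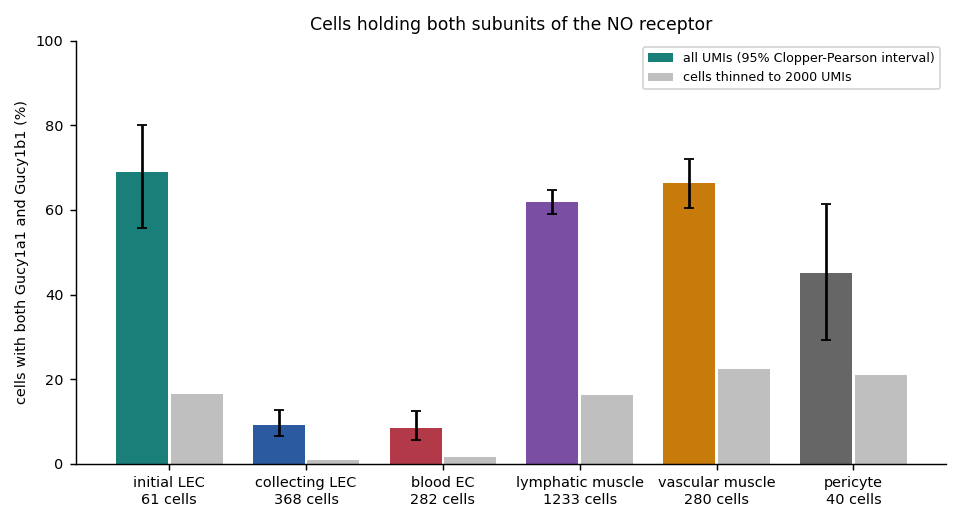
Share of cells of each vessel gate with at least 1 UMI of both Gucy1a1 and Gucy1b1, in percent from 0 to 100. Coloured bars use all UMIs with the exact 95% interval, and grey bars use cells thinned to 2000 UMIs. Initial LEC, at 68.9%, stands with the muscle gates at 61.9% and 66.4%, while collecting LEC and blood endothelium (EC) stand at 9.24% and 8.51%.

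Mural cells are rich in the same subunits, so mural markers were read in each endothelial gate. Initial endothelium held 0 Rgs5 UMIs, which allows up to 3.97 CPM, and 2.65 CPM of Notch3, against 2136 and 597 CPM in pericytes. Its Acta2 level was 11.9 CPM against 17.7 CPM in collecting endothelium. Kcnj8, a potassium channel subunit that pericytes also carry, was at 70.2 CPM in initial endothelium and found in 50.8% of its cells, against 4.97 CPM in collecting endothelium. In the 30 initial cells without a UMI of Rgs5, Notch3 or Kcnj8, Gucy1a1 was at 269 CPM (214 to 334) and Gucy1b1 at 200.1 CPM (153 to 257), as high as in the whole gate, whereas Gucy1a2 was at 19.7 CPM (7.22 to 42.8, 6 UMIs).

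Of 40 other genes of the pathway, 22 reached 20 CPM in either lymphatic endothelial gate. None was higher in collecting endothelium and 3 were higher in initial endothelium, with a median log2 ratio of -0.13. Over all 6896 genes the shares were 6.82% and 7.76%. Pde3b, a phosphodiesterase for cyclic AMP related to Pde3a, was at 76.8 CPM in initial and 2.98 CPM in collecting endothelium, 25.8-fold (14.4 to 48.95) higher and in 8 of 8 suffixes, the reverse of Pde3a. Cyb5r3, a reductase known to keep the haem of soluble guanylate cyclase in its reduced state, was 2.94-fold higher (455 against 155 CPM, 8 of 8 suffixes). Rgs2, a regulator of G-protein signalling that PRKG1 activates, was 3.07-fold higher (54.3 against 17.7 CPM), in 5 of 8 suffixes.

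Within the collecting gate, cells with the valve marker Cldn11 (114 cells) were set against those without it (254 cells). Ddah1 was the only one of the 10 genes whose interval lay apart from 1, at 172 against 122 CPM (1.41-fold, 1.21 to 1.63). Nos3 was at 229 CPM in valve-type and 252 CPM in the other cells (ratio 0.907, 0.808 to 1.02). The 32 lymphatic endothelial cells with only one of Lyve1 and Ccl21a were close to the collecting gate, at 238 CPM of Nos3, 156 CPM of Ddah1, 23.3 CPM of Gucy1a1 and 8.72 CPM of Gucy1b1.

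The second comparison was collecting lymphatic against blood endothelium. Nos3, Ddah1 and Prkg1 were higher in the lymphatic cells and Gucy1a2 and Pde3a in the blood endothelial gate, 3 and 2 of 9 genes. Over all 7155 genes the shares were 9.56% and 13.1%, and the median log2 ratio was -0.27 over the 9 genes and -0.01 over all. Nos3 was 2.53-fold (2.16 to 2.97) higher, Ddah1 4.98-fold (3.79 to 6.66) and Prkg1 2.08-fold (1.92 to 2.24), each in 8 of 8 suffixes. The Prkg1 ratio was 3.08 in capture set 1 and 1.71 in set 2, and without suffix 3 it was under 2-fold (log2 ratio 0.94). Gucy1a2 was 64.1-fold (24.2 to 240) higher in blood endothelium, in 8 of 8 suffixes, on 98 against 4 UMIs. Pde3a was 2.55-fold (2.03 to 3.20) higher there but in 5 of 8 suffixes only, and in capture set 1 it was lower than in collecting endothelium, by 0.63 on the log2 scale. Suffix 7 held 70 of the 282 blood endothelial cells and the highest Pde3a level, 179 CPM, and without it Pde3a was no longer 2-fold higher (log2 ratio of collecting over blood -0.86). Gucy1b1 was 1.93-fold (1.40 to 2.66) and Gucy1a1 1.31-fold (1.04 to 1.66) higher in the blood endothelial gate, short of the rule. Gucy1b1 passed 2-fold when suffix 2, 3, 4 or 6 was left out, and without suffix 7 Gucy1a1 was higher in collecting endothelium (log2 ratio 0.21).

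These subunit and phosphodiesterase levels moved with mural markers inside the blood endothelial gate. The gate held 339 CPM of Rgs5, 60.8 CPM of Notch3, 64.9 CPM of Kcnj8 and 107 CPM of Abcc9, and a UMI of Rgs5 was seen in 32.3% of its cells. It also held 1538 CPM of the red cell gene Hbb-bs. In the 187 cells with no UMI of Rgs5, Notch3 or Kcnj8, Gucy1b1 was at 1.77 CPM (2 UMIs) and not 36.9, Gucy1a2 at 1.77 CPM (2 UMIs) and not 50.9, Gucy1a1 at 16.8 CPM and not 57.7, Pde3a at 3.53 CPM and not 79.5, and Pde5a at 0.883 CPM and not 12.5. Nos3 (115 CPM), Ddah1 (40.6 CPM), Ddah2 (80.3 CPM) and Cav1 (511 CPM) stayed near the level of the whole gate, and Prkg1 was at 282 CPM (252 to 315). With the 348 collecting cells held to the same condition, 7 of the 10 genes reached 20 CPM in either gate. Of these, 5 were higher in collecting endothelium (Nos3, Ddah1, Prkg1, Gucy1a1 and Pde3a) and 0 in blood endothelium, where the rule counted 10.8% and 11.7% of all 7052 genes. This condition was chosen after seeing the data.

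The 2 subsets of the blood endothelial gate differed in the same way for the subunits, Pde5a and Pde3a, but not for Prkg1. Cells with Rgcc and no Plvap (129 cells) held 92.6 CPM of Gucy1a2, 58.9 CPM of Gucy1b1 and 130.4 CPM of Pde3a, against 1.52, 4.57 and 7.62 CPM in the 76 cells with Plvap and no Rgcc. Rgs5 stood at 497 and 51.8 CPM in them. Cav1 was 1.96-fold (1.69 to 2.28) higher in the cells with Rgcc, and Ddah1 3.48-fold lower, at 14.0 against 48.8 CPM. Nos3 did not differ beyond counting error, at 99.6 and 93.0 CPM. Prkg1 was slightly lower in the cells with Rgcc, at 382 against 454 CPM (ratio 0.840, 0.710 to 0.993).

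**Figure D4:**
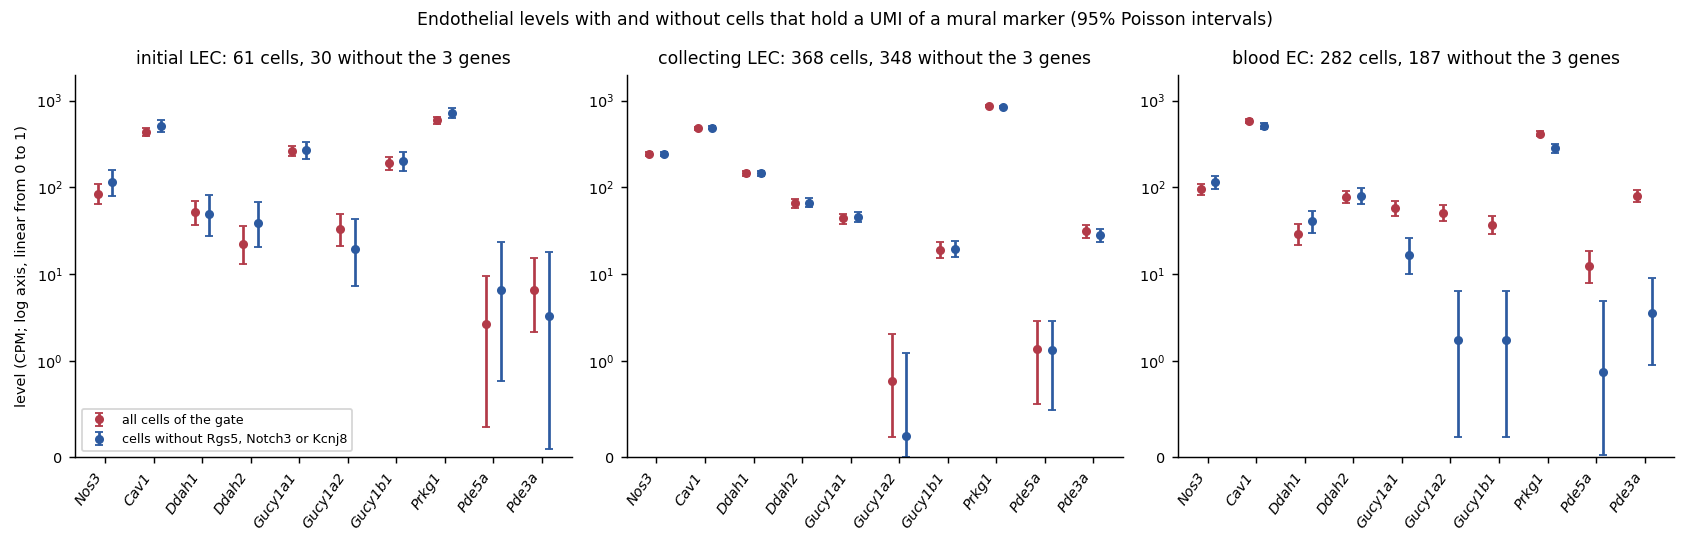
Level of the 10 genes in the 3 endothelial gates, in CPM on an axis that is linear from 0 to 1 and logarithmic above, with 95% Poisson intervals. Red points are all cells of a gate and blue points are cells without a UMI of Rgs5, Notch3 or Kcnj8. In blood EC the 3 subunits, Pde5a and Pde3a are lower in the blue cells (Gucy1b1 at 1.77 against 36.9 CPM), whereas in initial LEC Gucy1a1 and Gucy1b1 are at the same level in both.

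Of the 24 further pathway genes at 20 CPM, 2 were higher in collecting lymphatic and 8 in blood endothelium. The shares over all 7155 genes were 9.56% and 13.1%. Slc7a1, the arginine transporter that supplies the synthase, was 3.40-fold (2.78 to 4.18) higher in collecting endothelium (190.5 against 56.1 CPM, 8 of 8 suffixes), and the other was Pde10a, named after its values were seen. Nostrin, which traffics NOS3 to the inside of the cell, was 4.50-fold (3.05 to 6.71) higher in blood endothelium, on 38.4 against 8.54 CPM. Gch1, which makes the cofactor tetrahydrobiopterin, was 2.03-fold higher there, Cavin1, a coat protein of caveolae, 2.04-fold, and Vasp, a cytoskeletal target of PRKG1, 2.14-fold. Abcc4, a pump that exports cyclic nucleotides, was 9.08-fold (6.73 to 12.4) higher in blood endothelium. The cGMP-degrading enzymes Pde1a (22.8-fold, 61 against 7 UMIs) and Pde9a (2.53-fold) were also higher there. Pde1a was higher still in mural gates, at 421 CPM in pericytes and 314 CPM in vascular muscle, against 31.7 CPM in blood endothelium. Nostrin was at 95.9 CPM in pericytes (18 UMIs) and Abcc4 at 42.6 CPM (8 UMIs), the latter below its 103 CPM in blood endothelium. The part of mural transcripts in these differences was not tested gene by gene.

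The third comparison was lymphatic against vascular muscle. Between these gates the 10 genes were within 2-fold except Cav1, which was 2.29-fold (2.10 to 2.49) higher in lymphatic muscle. Cav1 ran from 626 to 914 CPM over the suffixes in lymphatic muscle (median 704) and from 225 to 361 CPM in vascular muscle (median 319), so the ranges do not overlap. That is 1 of 8 genes at 20 CPM higher in lymphatic and 0 higher in vascular muscle, where the rule counted 8.96% and 7.64% of all 6764 genes. The median log2 ratio was -0.38 over the 8 genes and 0.09 over all genes.

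Ddah2 was 1.93-fold (1.54 to 2.45) higher in lymphatic muscle, in 8 of 8 suffixes, and it reached 2-fold when suffix 3, 5 or 6 was left out. When clusters of cells with like transcriptomes replaced the gates it also reached 2-fold, at 85.0 against 32.7 CPM, beside Cav1 at 793 against 277 CPM. The receptor, kinase and phosphodiesterase genes were slightly higher in vascular muscle: Gucy1a1 1.37-fold (1.28 to 1.46), Gucy1b1 1.36-fold (1.23 to 1.51), Prkg1 1.34-fold (1.29 to 1.39) and Pde5a 1.53-fold (1.36 to 1.71), each in 8 of 8 suffixes, and Pde3a 1.27-fold (1.20 to 1.34) in 7 of 8. Gucy1a2 went the other way, 1.31-fold (1.16 to 1.48) higher in lymphatic muscle in 6 of 8 suffixes. The beta subunit made up 29.6% of the UMIs of Gucy1a1 and Gucy1b1 together in both muscles (28.5 to 30.7 in lymphatic, 27.3 to 31.9 in vascular muscle).

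Among 21 further pathway genes at 20 CPM, 2 were higher in lymphatic and 3 in vascular muscle, beside 8.96% and 7.64% of all 6764 genes. Cavin2, a coat protein of caveolae, was 7.81-fold (6.28 to 9.85) higher in lymphatic muscle, at 334 against 42.7 CPM, and Rgs2 4.27-fold, at 1061 against 248 CPM, both in 8 of 8 suffixes. Pln, the phospholamban brake on the calcium pump, was 8.34-fold (7.48 to 9.30) higher in vascular muscle, at 436 against 52.3 CPM. Pde1a was 4.15-fold higher there and Kcnmb1, a subunit of the large-conductance potassium channel, 2.07-fold.

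**Figure D5:**
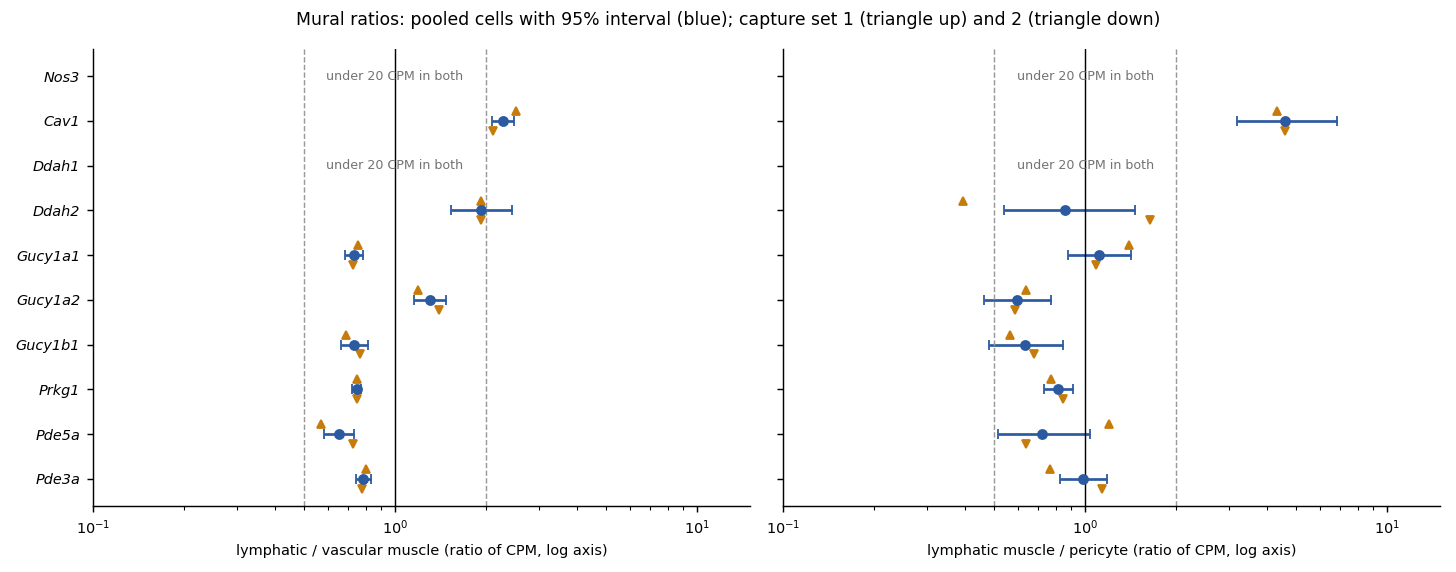
Ratio of CPM in lymphatic muscle to that in vascular muscle (left) and pericytes (right), on log axes, with the 95% interval of pooled cells in blue and the 2 capture sets as orange triangles; dashed lines mark 2-fold. Cav1 is the only gene whose ratio is above 2 in both panels, at 2.29 and 4.58, and the receptor, kinase and phosphodiesterase genes other than Gucy1a2 lie just below 1 on the left.

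Against the 40 pericytes, lymphatic muscle was again higher in Cav1 alone, 4.58-fold (3.18 to 6.84) and in 8 of 8 suffixes, which makes 1 of 8 genes, with 0 higher in pericytes, beside 7.72% and 12.8% of all 7500 genes. The median log2 ratio was -0.26 over the 8 genes and -0.13 over all. Gucy1a2 was 1.69-fold (1.30 to 2.16) higher in pericytes, in 8 of 8 suffixes, and Gucy1b1 1.58-fold (1.18 to 2.08), in 7 of 8, both short of 2-fold. Gucy1a1, Ddah2, Pde5a and Pde3a had ratios whose intervals include 1. The pericyte gate also held 1901 CPM of the fibroblast gene Dcn and 1667 CPM of Acta2, and their part in these levels was not tested.

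Of 24 further genes, 8 were higher in lymphatic muscle and 4 in pericytes, beside 7.72% and 12.8% of all 7500 genes. Kcnma1, the pore of the large-conductance potassium channel that PRKG1 opens, was at 261 CPM in lymphatic muscle against 1 UMI in pericytes (48.9-fold, 8.78 to 1934). Ppp1r12b, a myosin phosphatase subunit, was 5.05-fold, Rgs2 3.98-fold and Cavin3 3.16-fold higher in lymphatic muscle. Pericytes were higher in Pde1a, at 421 against 75.6 CPM (5.56-fold, 4.36 to 7.02). Abcc4 (8 UMIs), Pde2a (6 UMIs) and Nostrin (18 UMIs) were also higher in pericytes, on few molecules. Nostrin was higher there in 4 of 8 suffixes, Abcc4 in 2 and Pde2a in 4.

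The last comparison set the endothelium of the collecting vessel against its own muscle, the sender against the receiver of the signal. Of 10 genes, 2 were higher in the endothelium and 5 in the muscle, against 18.2% and 18.4% of all 7399 genes, and the median log2 ratio was -1.98 over the 10 genes and 0.06 over all. The synthase and the enzyme Ddah1 lay on the endothelial side: Nos3 317-fold (160.5 to 736, with 8 UMIs in muscle) and Ddah1 14.1-fold (11.5 to 17.4). On the muscle side were the receptor and both phosphodiesterases: Gucy1a1 9.68-fold (8.45 to 11.1), Gucy1b1 9.36-fold (7.62 to 11.6), Gucy1a2 262-fold (102 to 963, 4 endothelial UMIs), Pde5a 96.6-fold (46.8 to 241, 7 endothelial UMIs) and Pde3a 21.2-fold (18.1 to 24.96). All 7 differences had the same direction in 8 of 8 suffixes. Prkg1 (1.67-fold) and Cav1 (1.47-fold) were higher in muscle in 8 of 8 suffixes without reaching 2-fold, and Ddah2 (1.26-fold) in 5 of 8.

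Of 26 further pathway genes, 7 were higher in collecting endothelium and 10 in lymphatic muscle, beside 18.2% and 18.4% of all 7399 genes. The membrane guanylate cyclases, receptors for natriuretic peptides that also make cGMP, lay in the endothelium: Npr1 at 84.6 against 2.28 CPM (37.1-fold, 24.6 to 58.5) and Npr2 at 36.4 against 2.09 CPM (17.4-fold, 11.1 to 28.4). Gch1 (5.10-fold), Slc7a1 (2.50-fold), Pde2a (8.01-fold), Cavin2 (4.96-fold) and Cav2 (2.06-fold) made up the rest of the 7. In muscle, Mrvi1, the PRKG1 substrate also called Irag1 that restrains calcium release, was at 272 CPM against 2 endothelial UMIs, Kcnma1 at 261 CPM against 5 UMIs and Rgs2 at 1061 against 17.7 CPM. Cavin3 was 2.45-fold and Pde1a 54.4-fold higher in muscle.

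Outside the vessel gates, Cav1 and Ddah2 reached higher levels than inside, and several other genes were found below their highest vessel level. Mesothelial cells had the highest Cav1 level of the 16 gates, 941 CPM (923 to 958), and held 123 CPM (116 to 129) of Gucy1a1 but 2.62 CPM of Gucy1b1, so that the beta subunit made up 2.09% (1.44 to 2.94) of the UMIs of the pair there against 42.0% (36.7 to 47.4) in initial lymphatic endothelium. Schwann cells held 724 CPM (636 to 820) of Prkg1, and fibroblasts 230 CPM of Prkg1 and 126 CPM of Pde3a. T cells held 47.9 CPM (38.4 to 59.1, 88 UMIs) of Pde5a and epithelial cells, all from suffixes 1 to 4, 36.5 CPM. B cells, used as the background, held 50.5 CPM of Cav1 and 18.1 CPM of Gucy1a1 beside 170 CPM of Acta2. The Gucy1b1 level was under 10 CPM in every gate outside the 6 vessel gates.

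Across all 16 gates, log2(CPM + 10) of Gucy1a1 and Gucy1b1 correlated at r = 0.91, Nos3 and Ddah1 at 0.82, and Pde5a and Pde3a at 0.82. These are descriptions over 16 points that share libraries and depth. Among 7972 genes at 50 CPM or more in a gate, those most like Nos3 were Pkn3 (r = 0.99), Emcn (0.99) and Cyyr1 (0.98), whose levels peak in lymphatic endothelium. Cav1 was closest to the caveola genes Cavin1 (0.92) and Ehd2 (0.91) and to Pkia (0.91), Ddah1 to Ssh1, Git1 and Rassf10 (0.93 each), and Ddah2 to Snx7 (0.94), Mxra7 (0.88) and Nrep (0.87). Gucy1a1 was closest to Slc25a25 (0.91), Amigo2 (0.89) and Nexn (0.88), and Gucy1b1 to Scn3a (0.92), a sodium channel gene at 222 CPM in initial lymphatic endothelium, Slc25a25 (0.91) and Sept7 (0.90). For Gucy1a2 these were Tnc (0.94), Vtn (0.94) and Foxs1 (0.93), for Prkg1 Fermt2 (0.96), Fam8a1 (0.95) and Adamts1 (0.95), for Pde5a Eprs (0.95), Crispld2 (0.92) and Dctn4 (0.91), and for Pde3a Aoc3 (0.97), Foxs1 (0.95) and Adamts4 (0.95).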

How the data were processed

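The authors deposited raw counts of UMIs, which Cell Ranger 7.1.0 wrote, per the file headers. Seurat 4.3.0.1 and mm10 also appear in the submitters' processing notes, the former with no role, and no source used here names the annotation behind the counts. Of 24046 barcodes, 380 were dropped for under 500 UMIs, under 300 genes or a mitochondrial share of 15% or more, and 724 doublets (3.06%) called by Scrublet within each capture set (scanpy 1.11.5) were left out. Marker gates took 17587 of the 22942 cells. Another 577 cells fell in 2 gates and were left out, and 4778 fell in none. Counts were summed per gate, with exact Poisson, conditional binomial and Clopper-Pearson intervals. The rule was checked on simulated counts, and the outcome is not reported here. The genes and lists were chosen with earlier results of these data known. All 10 genes are named, from the wider list up to 3 genes per role and comparison with the largest fold, and for each gene the 3 most alike. Clusters (Leiden, resolution 1.0) were made without the pathway genes. Gene positions come from GENCODE M21.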

Additional observations from a re-analysis of the deposited data

How the results depend on the processing

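No paired test was made. The vessel gates had cells in each of the 8 suffixes, so gates could be compared within suffixes, and the directions of those comparisons are given. Suffixes and tags carry no label of mouse or sex and were not used as replicates. Over 1038 recomputed ratios of the 10 genes, 920 moved by less than their counting interval, 116 moved further, and 2 that had met the 2-fold rule changed sign, both for Pde3a in collecting against blood endothelium (log2 0.63 in capture set 1, 2.98 in cells without mural markers). Among ratios short of that rule 39 changed sign, 10 of them when 1 suffix was left out, such as Gucy1a1 in collecting against blood endothelium without suffix 7 (log2 0.21) and Ddah2 in lymphatic muscle against pericytes without suffix 3 (log2 0.27). The cause of these shifts was not tested.

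Counts of genes higher in collecting and in initial endothelium were 4 and 3. At a fold of 3 the first was 1, and leaving out 1 suffix gave 4 for collecting and 2 to 3 for initial endothelium. For the wider list (0 and 3) the collecting count was 2 with the mean of per-cell CPM, in capture set 2 and with no minimum level, 1 in set 1 and in cells without mural markers, and 0 to 1 without 1 suffix (1 without suffix 5 or 7), and the initial count was 5 with no minimum level and 3 without any 1 suffix.

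Against blood endothelium (3 collecting, 2 blood) the blood count was 1 with cells thinned, with the mean of per-cell CPM, in capture set 1 and at 3-fold, 4 in set 2 and 0 without mural-marker cells. The collecting count was 1 at 3-fold and 5 without mural-marker cells. Without 1 suffix the ranges were 2 to 3 and 1 to 3 (1 without suffix 7). Wider-list counts (2 and 8) were 4 and 4 with clusters, 4 and 4 in set 1, and 1 and 3 at 3-fold. The collecting count was 1 in set 2 and 5 without mural-marker cells, the blood count 5 without the Pdgfra condition and 5 with cells thinned, and without 1 suffix they were 2 and 6 to 8.

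Between the muscles (1 and 0) the lymphatic count was 2 with clusters at either resolution (1.0 or 3.0), 0 at 3-fold and 1 to 2 without 1 suffix, and the vascular count stayed 0. The wider list (2 and 3) gave 6 vascular genes with no minimum level, and 2 and 2 to 3 without 1 suffix. Against pericytes (1 and 0) the pericyte count was 1 in capture set 1, and without 1 suffix the counts were 1 and 0, with 6 to 8 and 2 to 5 for the wider list (2 pericyte genes without suffix 7). For collecting endothelium against lymphatic muscle they were 2 and 5, with 6 to 7 and 10 for the wider list. Clusters at resolution 1.0 gave no initial lymphatic endothelial and no pericyte class, and those at resolution 3.0, added after seeing the data, no pericyte class, so those values could not be computed. Precision is limited by the 61 initial cells and 40 pericytes.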
